A study of Marchantia polymorpha with 78 samples.

Results

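In thalli of the liverwort Marchantia polymorpha moved out of darkness, 125 of the 19355 genes in the deposited table stood higher after 60 min of white, blue and red light and had come back close to the dark level after 1440 min. They were selected on measured values, as differences in log2(TPM + 1) between the mean of a light group and the mean of the dark group at the same time. TPM gives a level per transcript length, scaled so that every library has the same sum. A gene was taken when this difference was 1 or more at 60 min in each of white, blue and red light, under 0.5 in size at 1440 min in each of these lights, and under 1 at 60 min in far-red light. The values at 60 min, and those of white, blue and red light at 1440 min, therefore carry no test below. Of 777 genes that met the 60 min criterion in all of white, blue and red light, 148 also met the one at 1440 min, and 23 of these failed only the far-red criterion. All 125 passed the filter of 1 TPM in at least 3 libraries that left 13054 genes to test. Of them, 2 were under 1 TPM in every dark group and at time zero, and passed through the groups where they were high.

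The plants were Tak-1, the male laboratory wild type, and no mutant or transgenic line enters the data. Gemmae were kept for 8 days at 23 °C under continuous white light and then for 24 h in darkness, so every group shares that dark period. Plates then went into white light (50 to 60 µmol m⁻² s⁻¹), blue light (30 to 40, emission peak 430 nm), red light (80 to 90, 660 nm) or far-red light (30 to 40, 730 nm), or remained in darkness, for 30, 60, 180, 720 or 1440 min. A time-zero group was taken when the dark period ended. These 26 groups have 3 biological replicates each, every library pools the thalli of 3 plants, and the replicates of a group shared a plate. An effect of the plate cannot therefore be told apart from that of its treatment. The colours also differ in photon flux, and colour and flux cannot be told apart.

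Plants read red and far-red light through phytochrome, which red light switches on and far-red light largely switches off, and blue light through cryptochromes and phototropins. On return to light, growth regulators, cell cycle genes and the phenylpropanoid pathway, which makes sunscreens and wall phenolics from phenylalanine, are known to respond early in land plants. Such early responses are often short-lived even when the light stays on. DELLA proteins, which restrain growth and in flowering plants are removed when gibberellin is perceived, are among the regulators that tie growth to light.

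The label of these genes as absent in far-red light does not hold in the data. After 60 min of far-red light the difference from darkness had a median of 0.58 over the 125 genes, and lay between −0.05 and 0.999, the upper end being set by the rule. It was 0.5 or more in 83 genes, below 0.25 in 13 and below 0 in 2. The median ratio of the far-red difference to the mean of the white, blue and red differences was 0.413, and a ratio below 1 is set by the rule. The far-red values at 30 and 180 min, which the rule did not use, are given further on.

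Depth cannot be had from TPM, so no counting interval is given. Between 14791 and 15585 genes were above 0 TPM per library, and replicates correlated across genes with r of 0.988 to 0.997. The lowest belonged to darkness at 60 min, where replicate 3 stood apart, with r of 0.990 and 0.988 to replicates 1 and 2, which correlated at 0.994. Without it the rule finds 180 genes, 109 of them among the 125. The median difference of all tested genes from darkness at 30 min was 0.13 in white, 0.17 in blue and 0.17 in red light, and calls at 30 min are also given after scaling libraries by trimmed means of M-values (TMM), which removes this shift. With that scaling the rule finds 80 genes, 69 of them among the 125. Among defining markers of the thallus, MpRBCS (photosynthetic tissue) and MpNOP1 (air chambers) were above 1 TPM in all 78 libraries, and MpGCAM1 (gemma cups) reached 1 TPM in 73. Of oil body markers, MpC1HDZ and MpABCG1 were above 1 TPM in all 78. The others, MpR2R3-MYB2, MpSYP12B and MpERF13, reached it in 76, 76 and 73, with medians of 2.70, 2.21 and 1.58 TPM. Of reproductive markers, MpPRM was at most 0.183 TPM and MpDUO1 reached 1 TPM in 31 libraries. MpRKD was abundant in all 78, at 46.6 to 142 TPM with a median of 101 TPM. In whole thalli, fewer cells of a type and less RNA per cell cannot be told apart.

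**Figure D1:**
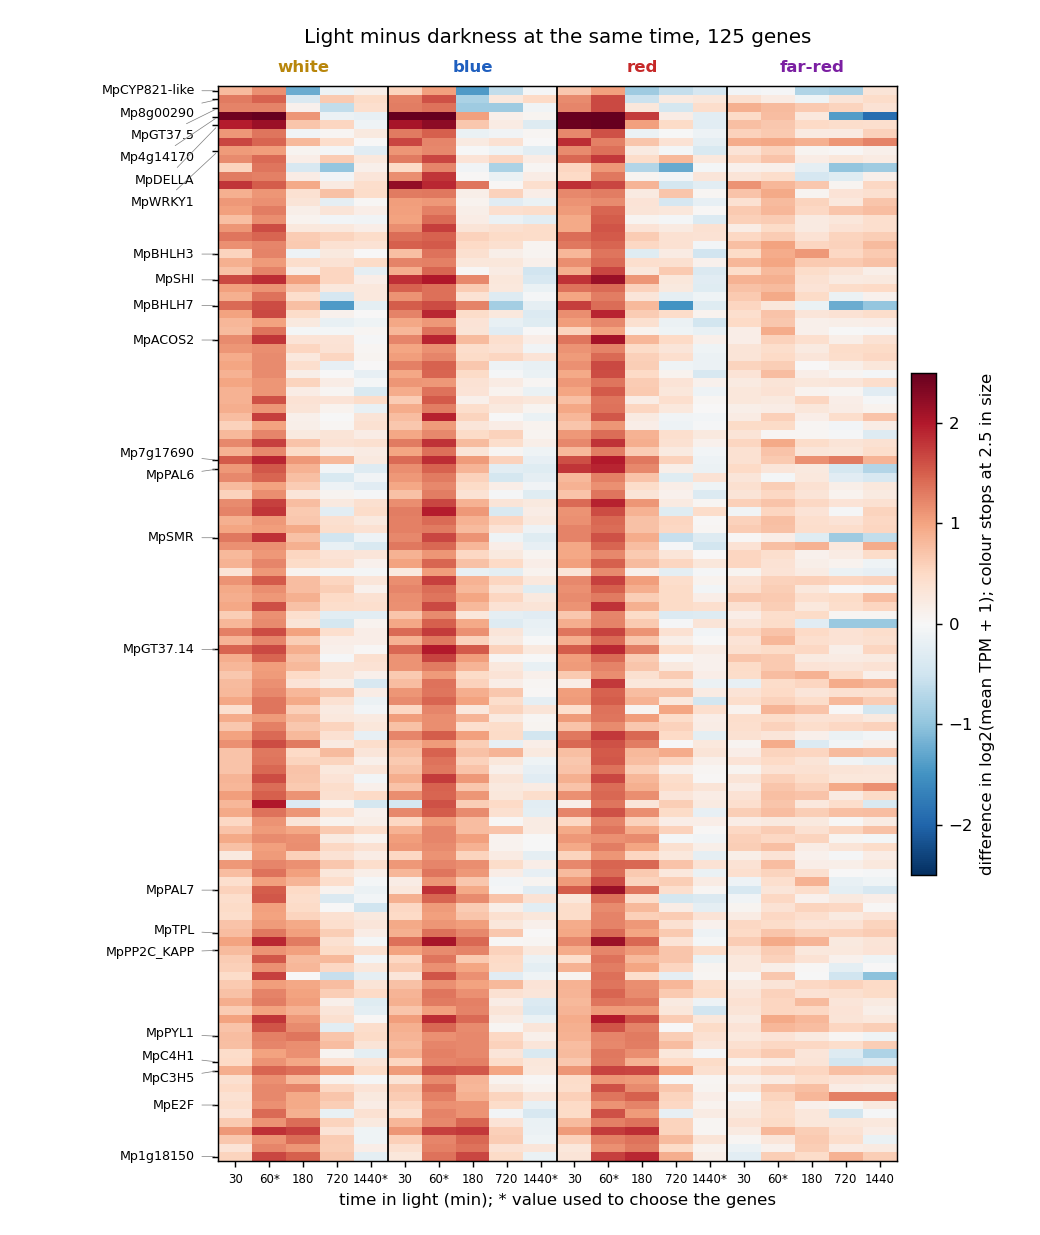
Difference in log2(mean TPM + 1) between light and darkness at the same time for the 125 genes (rows, ordered by mean response at 180 min minus that at 30 min over white, blue and red light) in 4 lights at 5 times (columns). Columns with a star were used to choose the genes; far-red light at 60 min is pale red with a median of 0.58, and rows at the top are paler or blue at 180 min while those at the bottom are not.

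Before the 60 min used for selection, the genes were already high. At 30 min, 38 of 125 (30.4%) were called higher in white light than in darkness, 60 (48.0%) in blue and 57 (45.6%) in red, and 0 were called lower by limma, with 125, 122 and 121 at an unadjusted p under 0.05 in either direction. A call is a Benjamini-Hochberg adjusted p under 0.05 over all tested genes with a log2 difference of at least 1. Of all tested genes, 2.49% were called higher in white light, 4.50% in blue and 4.19% in red, and 0.437%, 0.613% and 0.575% lower. With TMM scaling, 21, 30 and 26 of the 125 were called in white, blue and red light, against 1.65%, 2.35% and 2.11% of all tested genes. Without the fold threshold, 123, 122 and 120 of 125 passed the adjusted p as higher, against 39.5%, 44.6% and 44.6% of all tested genes. The median difference was 0.86 in white, 0.98 in blue and 0.96 in red light. In all, 31 genes were called in every one of these lights and 66 in at least 1, against 2.06% and 5.42% of all tested genes.

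**Figure D2:**
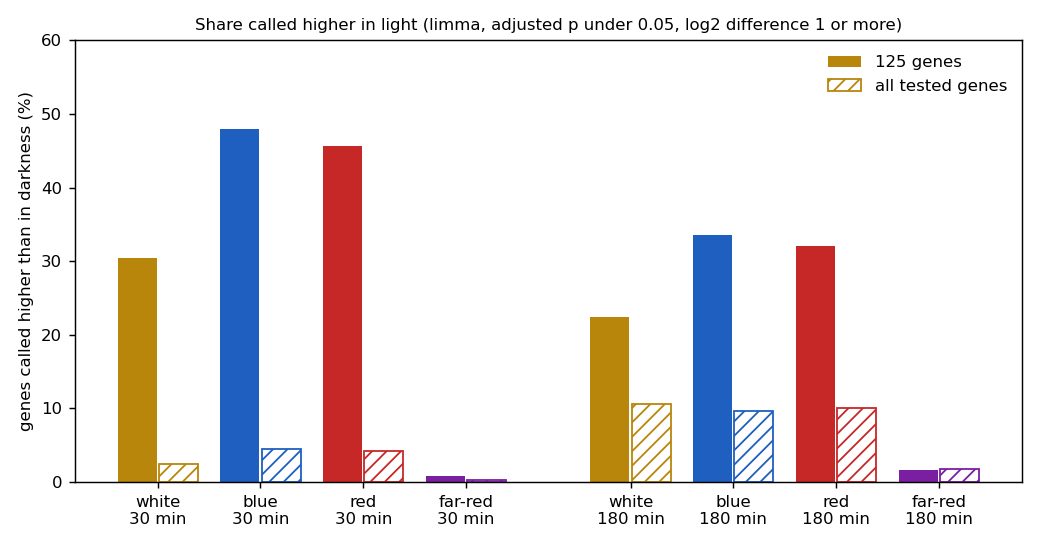
Share of genes called higher in light than in darkness, in percent, for the 125 genes (filled bars) and all 13054 tested genes (hatched bars) at 30 and 180 min. At 30 min the filled bars reach 30.4% in white, 48.0% in blue and 45.6% in red light but 0.8% in far-red light.

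The growth regulator MpDELLA (Mp5g20660) rose most among the genes with a symbol. At 30 min it was at 46.7, 50.4 and 48.7 TPM in white light, 56.1, 50.2 and 49.3 in blue, 66.4, 72.4 and 65.4 in red and 17.8, 21.9 and 21.2 in far-red light, against 12.4, 11.1 and 11.5 TPM in darkness. No light group overlapped darkness, and the far-red libraries lay below all those of the other lights. The log2 differences were 1.97 in white, 2.06 in blue and 2.45 in red light (SE 0.11 each; limma adjusted p = 3.6e-29 in red), and 0.75 in far-red light, where the fold threshold was not reached. At 180 min it was at 26.6, 30.8 and 30.9 TPM in white light and 32.1, 38.8 and 40.6 in red, against 17.4, 16.1 and 19.7 TPM in darkness. Its response at 180 min minus that at 30 min was −1.27 in white, −1.39 in blue and −1.42 in red light (SE 0.15), called in each.

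MpSHI (Mp3g19510) is a zinc finger factor whose relatives in Arabidopsis switch on auxin synthesis genes. It was at 12.9, 18.6 and 16.2 TPM after 30 min of white light, 19.8, 18.8 and 16.1 in blue, 17.9, 20.4 and 15.5 in red and 7.91, 8.93 and 9.86 in far-red light, against 4.44, 4.48 and 4.27 TPM in darkness. All light libraries were above all dark ones, and far-red was again the lowest light. MpSHI was still called higher at 180 min, by 1.03 in white, 1.20 in blue and 1.11 in red light (SE 0.14), with white light not called with TMM scaling (0.98).

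MpSMR (Mp1g14080) is a SIAMESE-related inhibitor of cyclin-dependent kinases. After 30 min it was at 51.5, 52.2 and 53.7 TPM in white light, 46.0, 49.6 and 49.1 in blue, 48.3, 50.7 and 50.1 in red and 20.8, 21.2 and 20.7 in far-red light, against 20.2, 21.7 and 19.7 TPM in darkness. Only the far-red libraries overlapped darkness. Red minus far-red light was 1.21 (SE 0.06; limma adjusted p = 7.9e-25) at 30 min and 1.24 at 180 min. At 180 min the far-red libraries, at 16.8, 18.8 and 19.0 TPM, lay below the dark ones at 23.9, 21.6 and 22.7 TPM, a difference of −0.30 that did not reach the fold threshold. MpSMR was named after its values were seen, as were MpBZIP13, MpE2F, MpWRKY1, MpTPL, MpBZR1, MpGPAT6b, Mp8g00290, Mp1g16320, Mp1g18150 and Mp5g21870 below and the neighbours on chromosome 4.

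Transcription factors made up 12 of the 125 genes, of 371 listed and 303 tested by symbol. At 30 min, 5 of the 12 were called higher in white light, 9 in blue, 9 in red and 0 in far-red light. In far-red light limma gave a median difference of 0.43, and 12 of the 12 had an unadjusted p under 0.05. With TMM scaling, 3, 5, 4 and 0 of the 12 were called. Over all 303 tested, 35, 53, 47 and 4 were called higher in these lights. MpBHLH7 (Mp3g17260), a basic helix-loop-helix factor, was at 24.1, 25.6 and 24.7 TPM in white light, 30.4, 32.1 and 30.4 in red and 12.0, 12.7 and 14.3 in far-red light, against 9.86, 9.02 and 7.01 TPM in darkness. None of these light groups overlapped darkness, and its differences were 1.44, 1.74 and 0.55. MpWRKY1 (Mp3g00010), of the WRKY family, was called higher by 1.07 in white, 1.11 in blue and 1.19 in red light at 30 min, and in none of them with TMM scaling (0.92, 0.91 and 0.98). By 180 min it was back at 71.9, 75.3 and 71.9 TPM in white light, against 70.2, 68.7 and 71.1 TPM in darkness. The bZIP factor MpBZIP13 was called higher by 1.12 in white, 1.17 in blue and 1.20 in red light at 30 min, and with TMM scaling only in red light.

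Hormone-related genes gave 6 of the 125, of 80 listed and 70 tested. These were MpDELLA, MpSHI, MpPYL1, MpBZR1, MpEBF1-2 and MpTPL. The list was widened beyond its planned prefixes, which among these 6 covered only MpDELLA, so the number 6 carries no weight. At 30 min, 2 of the 6 were called higher in white light, 3 in blue, 3 in red and 0 in far-red light. At 180 min these counts were 3, 4, 3 and 0. In far-red light limma gave 6 and 5 at an unadjusted p under 0.05, with medians of 0.46 and 0.43. With TMM scaling, 2, 2, 2 and 0 were called at 30 min and 1, 3, 2 and 0 at 180 min. Of the 70 tested, 7, 9, 9 and 1 were called higher at 30 min in white, blue, red and far-red light. In the same order, 2, 2, 2 and 0 were called lower. At 180 min these counts were 7, 7, 5 and 6 higher and 22, 16, 19 and 0 lower. MpPYL1 (Mp8g17460), a receptor of abscisic acid, was at 72.2, 75.6 and 69.5 TPM after 180 min of white light, 62.4, 65.1 and 70.0 in blue, 69.7, 69.4 and 72.6 in red and 36.2, 32.4 and 30.7 in far-red light, against 26.5, 30.2 and 27.8 TPM in darkness. The white, blue and red groups stood well above darkness without overlap, by 1.33, 1.20 and 1.30 (SE 0.12), and the far-red difference was 0.23 (limma adjusted p = 0.11). At 30 min the same gene had differences of 0.78, 0.86 and 0.87 and was not called.

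MpTPL (Mp7g17410), a TOPLESS co-repressor that factors recruit to silence genes, had differences of 0.78, 0.88 and 0.97 at 30 min, short of the fold threshold, and 1.03, 1.20 and 0.99 at 180 min in white, blue and red light, where the white call was lost with TMM scaling (0.98). MpBZR1 (Mp8g07390), whose Arabidopsis relatives act in brassinosteroid signalling, was called higher in blue (1.18) and red light (1.07) at 30 min, with 0.97 in white light, and neither was called with TMM scaling (0.98 and 0.87). MpEBF1-2 (Mp8g05840) belongs to the F-box proteins that in Arabidopsis remove the ethylene factor EIN3. It was at 144, 139.8 and 134 TPM after 30 min of white light, against 82.1, 79.6 and 77.4 TPM in darkness, without overlap. Its differences at 30 min, 0.80 to 0.97, stayed under the fold threshold. At 60 min its smallest difference was 1.00, just inside the rule, whereas MpRLK-Pelle_WAK_LRK10L-10, at 0.996, was just outside. At the far-red threshold Mp7g11100 (0.999) was inside and Mp1g27670 (1.01) outside, and at the 1440 min threshold Mp5g01230 (0.495) was inside and Mp8g00480 (0.5002) outside.

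**Figure D3:**
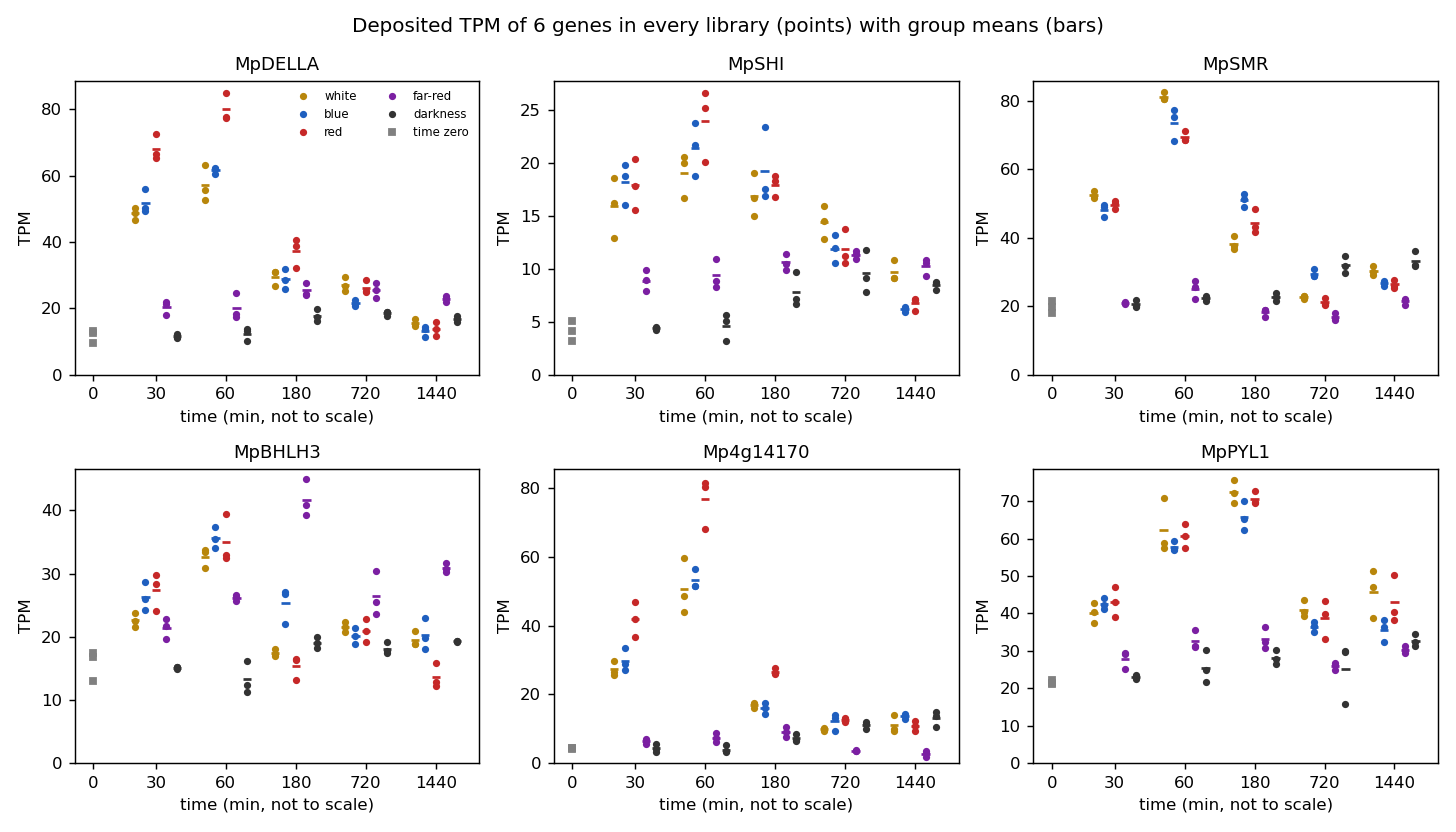
TPM of 6 genes in each of the 3 libraries per group (points, bars are group means) over time in white, blue, red and far-red light and darkness, with time zero in grey; the time axis is not to scale. MpDELLA, MpSHI and Mp4g14170 peak at 60 min, MpPYL1 is at least as high at 180 min, and MpBHLH3 is highest in far-red light at 180 min, at 39.3 to 44.9 TPM.

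The phenylpropanoid and flavonoid list gave 4 of the 125, of 43 listed, 35 tested and 16 that met the 60 min criterion. MpPAL6 (Mp4g14140) and MpPAL7 (Mp4g14110) encode phenylalanine ammonia-lyases, which start the pathway, MpC4H1 (Mp6g00020) the cinnamate hydroxylase of the next step, and MpPKS/CHS11 (Mp4g14120) a member of the chalcone synthase family. MpPAL6 was at 10.2, 11.0 and 12.8 TPM after 30 min of red light, 6.56, 6.96 and 6.33 in white, 7.35, 8.20 and 5.70 in blue and 2.97, 4.98 and 4.29 in far-red light, against 2.24, 2.82 and 2.72 TPM in darkness. Red was the highest and far-red the lowest light, with all groups above darkness. Its differences were 1.78 in red, 1.09 in white and 1.16 in blue light (SE 0.15), all called, and of the 4 genes 1 was called in white light, 1 in blue, 3 in red and 0 in far-red light (limma, 1 at an unadjusted p under 0.05). Over the 35 tested, these counts were 12, 11, 15 and 0. With TMM scaling, MpPAL6 was called only in red light (0.97 in white and 0.999 in blue light), and 0, 0, 2 and 0 of the 4 were called.

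MpC4H1, the most abundant of the 4, was at 423, 423 and 407 TPM after 180 min of blue light, 345, 333 and 339 in white, 318, 315 and 318 in red and 212, 243 and 196 in far-red light, against 167, 171 and 181 TPM in darkness. Every light group lay above darkness, far-red the least, and only blue light reached the fold threshold, at 1.26 (SE 0.06). At 30 min its differences were 0.50, 0.54 and 0.66 in white, blue and red light, and the change of the response between these times was 0.46, 0.72 and 0.21, under the fold threshold in each. MpPAL7 and MpPKS/CHS11 were near 1 TPM in darkness and their replicates spread widely. MpPAL7 was at 2.25, 1.68 and 1.51 TPM after 30 min of blue light, against 5.46, 9.001 and 2.47 TPM in red light, without overlap. It was the 1 gene of the 125 called between blue and red light at 30 min, with blue minus red at −1.12 (SE 0.26; limma adjusted p = 0.0073), against 0.0460% of all tested genes. That call was lost without replicate 1, without replicate 2, and with only the groups of the contrast fitted. Genes of these families resemble each other closely, so how reads were shared among them is uncertain.

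These lyase and synthase genes lie near each other by identifier. Between Mp4g14080 and Mp4g14190 stand 12 genes, of which Mp4g14080, MpPAL7, MpPKS/CHS11, MpPAL6 and Mp4g14170 are among the 125. Mp4g14170, not in the name table and given no function, had the largest difference of the 125 at 30 min. At 30 min it was at 25.7, 29.6 and 26.5 TPM in white light, 33.5, 28.8 and 27.1 in blue, 41.8, 46.9 and 36.8 in red and 6.94, 6.42 and 5.66 in far-red light, against 5.43, 3.29 and 4.09 TPM in darkness. White, blue and red light stood far above darkness, red highest, and far-red light just above it. The differences were 2.44, 2.56 and 3.04 (SE 0.15), and 0.49 in far-red light. Red minus far-red light, at 2.54, was the largest among the 125. In far-red light it was at 3.40, 3.79 and 3.63 TPM at 720 min and 2.88, 1.77 and 3.54 at 1440 min, against 9.90, 11.3 and 11.9 and then 14.8, 13.8 and 10.4 TPM in darkness. Far-red libraries were here below all dark ones, called lower by 1.39 at 720 min and 1.92 at 1440 min. The dark libraries at 1440 min were used by the rule, so that second value is not independent of the choice of genes.

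Of the 7 neighbours in this stretch outside the set, 5 met the 60 min criterion, and Mp4g14090 and Mp4g14130 did not. MpPKS/CHS10, MpPKS/CHS12, MpPKS/CHS13, MpPKS/CHS14 and MpPAL-like2 had differences of 3.70, 2.49, 3.39, 3.83 and 2.89 in white light at 60 min, and were left out by their values at 1440 min, such as 1.76 for MpPKS/CHS14 and −0.77 for MpPAL-like2 in white light. The 125 genes, these included, were spread over 8 chromosomes, with 10 to 23 on each. Direct neighbours made up 3 pairs, and 11 pairs were within 5 places of each other, 7 of them in this stretch.

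The list of glycosyltransferases and glycoside hydrolases had 246 genes, 206 tested, 20 that met the 60 min criterion and 6 among the 125. At 30 min 10, 11, 11 and 0 of the 206 were called higher in white, blue, red and far-red light. The GT37 family, which holds the xyloglucan fucosyltransferases of plants, is a part of it not planned as a list of its own. It had 18 genes listed and 15 tested. The 5 that met the 60 min criterion are all among the 125. At 30 min all 5 were called higher in white and blue light, 4 in red and 0 in far-red light (limma, 5 at an unadjusted p under 0.05, median 0.54). At 180 min 0, 1, 1 and 0 were called, with 2, 4, 5 and 4 at an unadjusted p under 0.05 and a median of 0.16 in white light. Over the 15 tested, the counts called higher were the same at both times, so no other gene of the family was called higher. Called lower at 180 min were 2 of the 15 in each of white, blue and red light, and 0 in far-red light. MpGT37.17 had 1.18, 1.31 and 1.43 at 30 min in white, blue and red light and 0.16, 0.34 and 0.46 at 180 min. With TMM scaling, 3 of the 5 were called in each of white, blue and red light at 30 min. MpGT37.14 (Mp7g07390) was at 21.7, 19.0 and 20.3 TPM after 30 min of white light, 17.8, 21.6 and 20.1 in blue, 23.7, 20.8 and 18.4 in red and 9.52, 9.73 and 8.62 in far-red light, against 7.89, 6.43 and 5.95 TPM in darkness. The lights other than far-red overlapped each other and none overlapped darkness.

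MpGT37.5 (Mp2g18250) parted by colour later on. At 180 min it was at 3.09, 3.66 and 2.51 TPM in blue light, 8.47, 8.10 and 8.21 in red, 7.16, 6.57 and 7.67 in white and 12.3, 9.89 and 10.6 in far-red light, against 6.33, 6.04 and 7.34 TPM in darkness. Blue libraries were below all others and far-red above all others. It was the 1 gene called between blue and red light at 180 min, with blue minus red at −1.19 (SE 0.12; limma adjusted p = 4.0e-13), where 1.03% of all tested genes were called. MpACOS2 (Mp5g01200), an acyl-CoA synthetase, was at 198, 198 and 183 TPM in white light at 30 min, 220.3, 215 and 207 in red and 93.6, 96.2 and 95.6 in far-red light, against 84.2, 85.4 and 83.9 TPM in darkness. Replicates were tight and no group overlapped darkness. Its differences were 1.18 in white, 1.22 in blue and 1.33 in red light (SE 0.05), with 0.17 in far-red light. MpGPAT6b, a glycerol acyltransferase of a family that makes cutin in Arabidopsis, was called higher in blue (1.10) and red light (1.09) at 30 min, but not with TMM scaling (0.90 and 0.89).

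Other enzymes and regulators entered singly. The cytochrome P450 gene MpCYP821-like (Mp7g05870) was at 18.6, 15.9 and 17.6 TPM after 30 min of white light, against 10.9, 8.91 and 9.14 TPM in darkness, and at 2.93, 3.32 and 3.74 TPM after 180 min, against 8.16, 8.83 and 10.8 TPM. The groups did not overlap at either time, light above darkness at 30 min and below it at 180 min. Its differences at 180 min were −1.24 in white, −1.42 in blue and −0.88 in red light (SE 0.14), and it was the 1 gene of the 125 called lower in white or blue light at that time, when 8.53% and 8.09% of all tested genes were called lower. The class III peroxidase MpPOD161 was called higher by 1.29 in white and 1.16 in blue light at 30 min, with 0.50 in red, and the blue call was lost with TMM scaling (0.98).

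The bromodomain proteins, which bind acetylated histones, had 12 genes tested and 2 among the 125. MpBromo5 (Mp2g14370) was at 155, 154 and 152 TPM at 30 min of white light, 174, 170.0 and 165 in blue, 162, 161 and 160.2 in red and 87.1, 96.0 and 92.2 in far-red light, against 70.6, 61.4 and 57.5 TPM in darkness. Groups did not overlap darkness, and the far-red group lay between. It was called higher at 30 and 180 min in white, blue and red light, with 1.27, 1.42 and 1.34 and then 1.02, 1.14 and 1.13, and with TMM scaling only the white call at 180 min was lost (0.97). Of the kinase and phosphatase list (151 listed, 124 tested, 3 among the 125), MpPP2C_KAPP (Mp7g09640), a phosphatase that binds receptor kinases, was called higher by 1.02, 1.24 and 1.06 at 180 min, and the white call was lost with TMM scaling (0.97). The receptor kinase MpRLK-Pelle_RKF3b was called higher by 1.10 in white and 1.11 in red light at 30 min, and in neither with TMM scaling (0.96 and 0.92). Of 135 listed transporters, MpABCC11, an ABC transporter, and MpXUT2 were among the 125. MpXUT2 was at 65.9, 63.0 and 63.7 TPM after 180 min of white light and 37.7, 42.5 and 40.5 in far-red light, against 23.9, 29.4 and 30.6 TPM in darkness, with far-red between the others and no overlap. Of the 164 listed peroxidases, 57 polyphenol oxidases and 74 pentatricopeptide repeat proteins, 1 each was. The last of these, MpPPR_43, of a family that binds organelle RNA, was called higher in blue light at 30 min, by 1.14, but not with TMM scaling (0.93). Lists with 0 of the 125 were light signalling (15 genes), clock (5), late embryogenesis and dehydrin (72), photoprotection (7), chaperones (5), dirigent proteins (59) and lipoxygenases (16). Absence from the 125 does not mean absence of a rise. The first criterion, a difference of 1 or more in white, blue and red light, was met by genes in each of these lists. They were 14 late embryogenesis and dehydrin, 5 dirigent, 2 clock and 2 chaperone genes. Light signalling, photoprotection and lipoxygenases had 1 each. These genes failed another criterion of the rule. All such list counts describe the selection and carry no test.

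At 180 min, 28 of 125 (22.4%) were called higher than in darkness in white light, 42 (33.6%) in blue and 40 (32.0%) in red, against 10.6%, 9.64% and 10.1% of all tested genes. The median differences were 0.70, 0.78 and 0.77. In all, 23 genes were called in all of these lights and 53 in at least 1, against 6.92% and 13.4% of all tested genes. Those called in all of these lights at 30 and again at 180 min were 7, whereas 14 were called in all at 30 min and in none at 180 min, and 10 the other way round. Of all tested genes, 0.843%, 0.774% and 5.53% met these conditions. The mean difference over white, blue and red light was largest at 60 min in 114 of 125 genes among 30, 60 and 180 min, which the selection at 60 min favours. It was larger at 30 than at 180 min in 82 genes and at least as large at 180 min in 43.

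The change of the response between 30 and 180 min was tested directly. It was called lower at 180 min in 10 genes in white light, 10 in blue and 8 in red, and higher in 0, 1 and 1 (limma, with 85 genes in white light at an unadjusted p under 0.05 in either direction). Of all tested genes, 8.99%, 11.1% and 10.5% were called lower, and 5.68%, 5.13% and 5.02% higher, so the share of the 125 called lower was not above that of all genes. With TMM scaling, 8, 7 and 6 of the 125 were called lower and 1, 5 and 3 higher, against 7.42%, 7.81% and 7.58% and 6.76%, 7.09% and 7.09% of all tested genes. The median change in blue light was −0.24, and −0.07 with TMM scaling. The 5 called lower in every one of these lights were MpDELLA, MpCYP821-like, Mp4g14170, Mp8g00290 and Mp1g16320, all of them also with TMM scaling. Mp8g00290 was at 46.4, 51.8 and 47.9 TPM after 30 min of white light, against 19.1, 20.3 and 17.9 TPM in darkness, and at 17.1, 16.7 and 14.4 TPM after 180 min, against 18.0, 20.6 and 23.6 TPM. Light was above darkness at 30 min and below it at 180 min, without overlap at either time, and the change was −1.65 (SE 0.12). MpWRKY1 fell by 1.01 in white and 1.12 in blue light, and its −0.97 in red light was not called. With TMM scaling neither fall was called, at −0.91 and −0.94.

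Higher at 180 than at 30 min was Mp1g18150. It was at 43.9, 41.3 and 46.8 TPM after 30 min of white light, 36.6, 37.4 and 37.6 in red and 24.5, 24.0 and 24.4 in far-red light, against 28.7, 29.8 and 29.8 TPM in darkness. At 180 min it was at 81.6, 80.3 and 93.2 TPM in white, 126, 107 and 106 in red and 40.7, 43.3 and 39.4 in far-red light, against 25.5, 34.1 and 29.7 TPM in darkness. White and red light were above darkness at both times, and far-red light was below darkness at 30 min and above it at 180 min. The response increased by 1.39 in blue and 1.56 in red light (SE 0.14), the only calls in that direction without TMM scaling. With it, Mp1g18150 was also called in white light, at 1.03, and other genes in blue and red light. MpE2F (Mp1g02890), a factor that drives genes of DNA replication, was at 41.5, 40.5 and 41.4 TPM after 180 min of white light, 44.8, 46.7 and 49.1 in blue, 49.8, 48.9 and 54.2 in red and 22.8, 24.1 and 21.8 in far-red light, against 20.4, 21.6 and 20.5 TPM in darkness. Far-red libraries lay just above darkness, without overlap, and far below the other lights. Blue (1.13) and red light (1.25) were called, with 0.95 in white light and 0.13 in far-red light. MpC3H5 (Mp1g09040), a CCCH zinc finger protein, had 1.38, 1.55 and 1.67 at 180 min and was called higher in white light at 720 min, at 1.03 (SE 0.08), a call lost with TMM scaling (0.95) and without replicate 1. It was called at 30 min in blue (1.07) and red light (1.10) too, though not with TMM scaling. Averaged over white, blue and red light, Mp1g27860 had the largest difference at 180 min, with 1.70, 1.77 and 1.85, after 1.09, 1.10 and 1.06 at 30 min, calls that were lost at 30 min with TMM scaling. MpBromo9 had 1.10, 1.18 and 1.17 and MpLDAL1 1.19, 1.19 and 1.23 at that time.

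**Figure D4:**
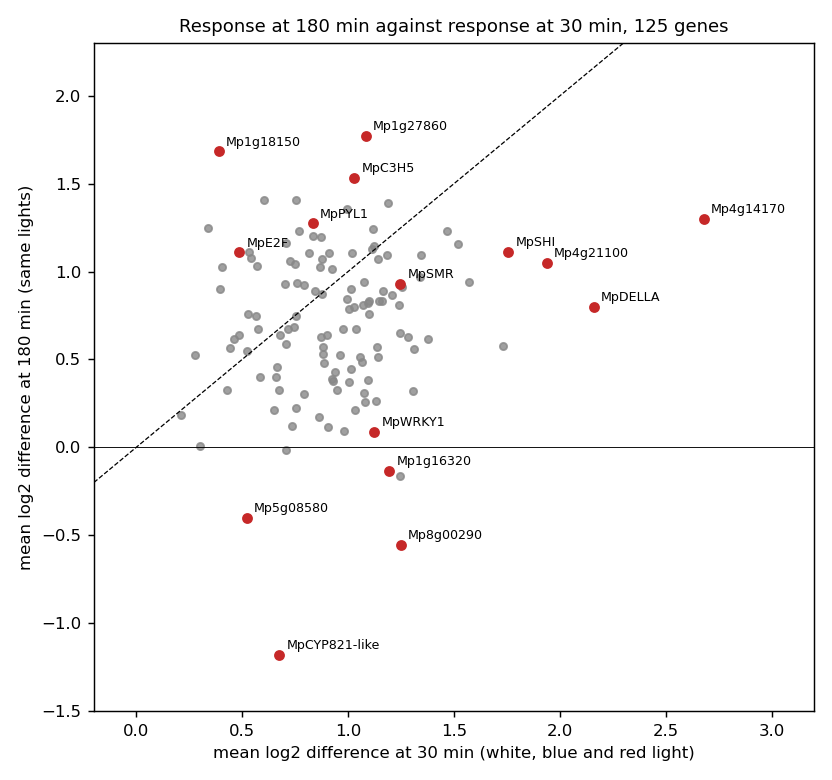
Mean log2 difference from darkness over white, blue and red light at 180 min (vertical axis) against that at 30 min (horizontal axis) for each of the 125 genes; the dashed line marks equal response and red points are genes named in the text. The 82 genes below the line responded more at 30 min, and the genes below 0 at 180 min are MpCYP821-like, Mp8g00290, Mp5g08580, MpGT37.5, Mp1g16320 and MpBHLH3.

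At 30 and 180 min, which the rule did not use, far-red light gave fewer calls than the other lights. At 30 min 1 of 125 was called higher, against 0.253% of all tested genes. At 180 min 2 (1.6%) were, close to the 1.71% of all tested genes. Without the fold threshold, 92 of 125 (73.6%) passed the adjusted p as higher at 30 min and 89 (71.2%) at 180 min, against 28.0% of all tested genes at 30 min and 28.0% at 180 min. With TMM scaling these were 82 and 83, against 21.4% and 22.1%. The medians were 0.37 and 0.36, against 0.06 over all tested genes at each time. The 1 gene called at 30 min, Mp4g21100, was at 10.4, 12.5 and 11.9 TPM in far-red light, against 5.54, 3.98 and 4.93 TPM in darkness. The groups did not overlap, and the difference of 1.12 (SE 0.12) became 0.96 without replicate 2, under the threshold.

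Red minus far-red light was called higher in 12 of the 125 at 30 min and in 12 at 180 min, with 1 called lower then. Of all tested genes, 1.18% and 7.22% were called higher in red light at these times, and 0.414% and 8.90% lower. At 180 min the 12 called higher were 9.6% of the 125. At 30 min the 12 were MpSMR, MpBHLH7, MpPAL7, MpPKS/CHS11, MpPAL6, MpACOS2, MpDELLA, MpGT37.14, Mp4g14170, Mp3g16900, Mp5g21870 and Mp7g17690. MpGT37.14 was not called with TMM scaling, at 0.97. Mp5g21870 was also called at 180 min, at 1.64. These comparisons and those against darkness share libraries, so their values stand side by side and are not independent.

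MpBHLH3 (Mp2g00910), another basic helix-loop-helix factor, turned the other way. At 180 min it was at 40.9, 44.9 and 39.3 TPM in far-red light, 18.1, 16.9 and 17.2 in white, 22.0, 27.1 and 26.7 in blue and 13.2, 16.4 and 16.3 in red light, against 19.1, 18.2 and 19.9 TPM in darkness. Far-red libraries were above all others, and white and red ones below darkness. Far-red minus darkness was 1.09 (SE 0.10; limma adjusted p = 3.4e-14) and red minus far-red −1.39. Mp7g17690 was at 67.7, 73.0 and 69.7 TPM in far-red light and 64.8, 71.8 and 64.1 in white light at 180 min, which overlapped, against 27.3, 34.5 and 31.7 TPM in darkness. Its far-red difference was 1.15 (SE 0.08), and red minus far-red was 0.17 (limma adjusted p = 0.057), after 1.24 at 30 min.

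At 720 min few genes still passed the fold threshold. In white light 1 was called higher and 1 lower, in red light 1 higher and 2 lower, and in blue light 0 in either direction by limma, where 93 had an unadjusted p under 0.05. Of all tested genes, 23.4%, 24.3% and 19.6% were called in white, red and blue light. These counts of calls became 1 in white light without replicate 1, 2 in blue light without replicate 2 and 5 in red light without replicate 3. Without the fold threshold, 74, 78 and 81 of 125 still passed as higher in white, blue and red light, against 42.4%, 39.9% and 41.7% of all tested genes, with medians of 0.34, 0.28 and 0.35. MpBHLH7 was at 4.26, 5.84 and 6.43 TPM in white light, 9.09, 7.55 and 9.17 in blue, 5.45, 5.32 and 4.76 in red and 6.18, 5.77 and 7.21 in far-red light, against 16.4, 16.5 and 16.2 TPM in darkness. All lights were below darkness without overlap, and white (−1.43), red (−1.49) and far-red light (−1.24) were called lower (SE 0.11). Mp5g08580 was called lower in red light, with −1.25, and MpPPO38, a polyphenol oxidase, higher in red light, with 1.02 (SE 0.17), a call lost with TMM scaling (0.98). Blue minus red light at 720 min was called in 1 gene, Mp4g05470 (1.14, SE 0.18), where 1.02% of all tested genes were called, and that call was lost without replicate 3.

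In far-red light 3 genes were called higher and 2 lower at 720 min, and 3 and 2 at 1440 min, against 3.26% and 8.96% of all tested genes in either direction. Without replicate 3, 9 genes were called at 720 min. The dark libraries at 1440 min also served the selection. Mp3g06940 (1.27 and 1.26) and Mp5g13950 (1.10 and 1.24) were called higher at both times. Mp1g22070, the most abundant of the 125, was at 498, 471 and 468 TPM in far-red light at 720 min, against 925, 879.9 and 929.7 TPM in darkness, after 1289, 1259.7 and 1370.0 TPM in white light, against 543, 510.2 and 672 TPM in darkness, at 60 min. Far-red libraries were below all dark ones at 720 min, by a difference of −0.93 that was called only with TMM scaling (−1.01). The 60 min values were used by the rule. The next most abundant of the 125 at 60 min were Mp1g11340, MpC4H1, Mp3g20920 and MpACOS2. Mp3g20920 was at 338, 326 and 342 TPM in white light and 161, 161 and 163 in far-red light, against 101, 91.0 and 130.2 TPM in darkness, and the rule used these groups.

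The dark reference itself moved. Against time zero, 0 of 125 were called by limma after 30 min of further darkness, where 4 had an unadjusted p under 0.05 and 0% of all tested genes were called. After 180 min 0 were called, with 87 at an unadjusted p under 0.05 and 0.207% of all tested genes called. Without the fold threshold, 82 of 125 passed as higher at 180 min and 104 at 720 min, against 28.2% and 38.2% of all tested genes. With TMM scaling these were 72 and 92, against 20.1% and 27.7%. The median difference from time zero in darkness was 0.30 at 180 min and 0.48 at 720 min over the 125 genes, against 0.07 and 0.11 over all tested genes. At 720 min 5 were called higher, against 0.904% of all tested genes, namely MpSHI, Mp4g14170, Mp4g21100, Mp1g21110 and Mp3g02650, and 3 were without replicate 3. With TMM scaling 3 were called as well, without MpSHI (0.94) and Mp1g21110. MpSHI was at 9.16, 7.77 and 11.8 TPM in darkness at 720 min, against 3.23, 5.09 and 4.17 TPM at time zero. The groups did not overlap, and the difference was 1.03 (SE 0.14).

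Set against time zero in place of the dark group of the same time, levels in light stayed above the start. These values are a description, since the rule used the groups at 60 and 1440 min. The median difference from time zero at 60 min was 1.22 in white, 1.33 in blue and 1.39 in red light, and at 1440 min 0.61, 0.43 and 0.49, with 0.45 in darkness. In far-red light it was 0.33, 0.58, 0.69, 0.74 and 0.74 at 30, 60, 180, 720 and 1440 min. At 1440 min the levels in white, blue and red light were thus below those of 60 min but above time zero, and the level in darkness was above time zero as well. Before light, the 125 genes had a median level of 21.7 TPM at time zero, from 0.142 to 602, against a median of 23.0 TPM over all tested genes.

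**Figure D5:**
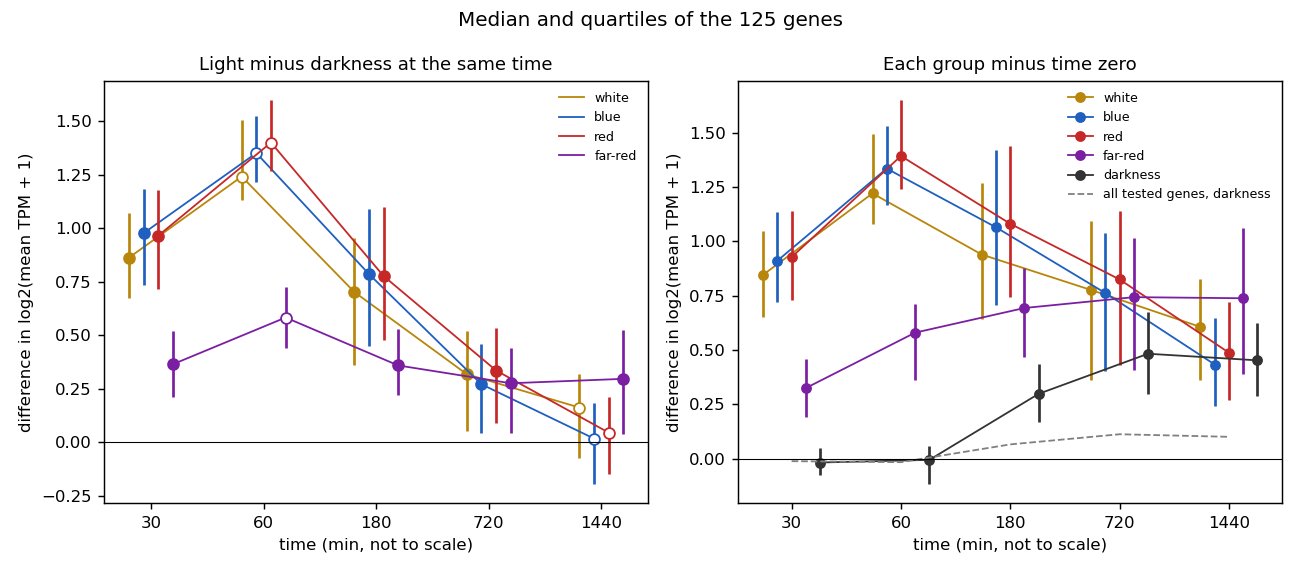
Median (points) and quartiles (lines) of the 125 genes for light minus darkness at the same time (left; open points were used to choose the genes) and for each group minus time zero (right), in log2(mean TPM + 1). On the right darkness climbs to a median of 0.48 at 720 min, while its median over all tested genes (dashed) stays at 0.11.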

How the data were processed

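Poly(A) RNA of 78 libraries was sequenced as paired ends of 150 bases, per the labels. The authors deposited TPM for 19355 genes, and every column sums to 1000000. The submitters' processing notes name STAR. Neither a version of it nor a build, annotation or quantifier was given in the sources used here. The authors' averaged table equals the mean of the 3 replicates within 1e-06 and gave the members. Genes were named by the number in their identifier from a table of assembly MpTak2_v7.1 (17384 matched, 3091 with a symbol; 123 and 44 of the 125).

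Genes with 1 TPM or more in 3 libraries were fitted on log2(TPM + 1) over all libraries with limma 3.58.1 (trend=TRUE, two-sided) in R 4.3.3, with Benjamini-Hochberg adjustment, after a test on simulated data. Differences are log2, errors are SE of the fit. Genes named by rule were up to 2 per list by mean difference at 30 min, the 5 largest with a symbol and 1 without among those called in white, blue and red light at 30 min and again at 180 min, those called in far-red light or between blue and red light, the largest called falls, the 5 most abundant at 60 min, and those beside the thresholds. The promoter motif search was not run, since no sequence was used here. Tables and figures used Python 3.11.15, pandas 2.3.3, numpy 2.4.6 and matplotlib 3.10.9. Members and lists were chosen with earlier results of these data known. The hormone list was widened, and the GT37, bromodomain and pentatricopeptide repeat lists were added, beyond the lists first planned. Alternatives were other pseudocounts (0.5, 0.1), filters (none, 5 TPM), TMM scaling, no trend, fewer groups, a replicate block and leaving out replicates. Without the fold threshold, and without replicate 3 of darkness at 60 min, were added after the data were seen.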

Additional observations from a re-analysis of the deposited data

Results flagged for a closer look

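Responses differed between lights or times, by a test of the difference itself, in these counts of the 125 genes. Blue minus red light was called in 1 gene at 30 min, 1 at 180 min and 1 at 720 min. Shares of all tested genes called in either direction were 0.0460%, 1.03% and 1.02%, so at 180 and 720 min the 125 were not above all genes. Red minus far-red light was called in 12 genes at 30 min, all higher, and in 13 at 180 min, 12 higher and 1 lower. Among all tested genes, 1.18% were called higher and 0.414% lower at 30 min, and 7.22% higher and 8.90% lower at 180 min. The response at 180 min minus that at 30 min was called in 10 genes in white light, 11 in blue and 9 in red. Of these, 10, 10 and 8 were lower and 0, 1 and 1 higher. In the same lights, 8.99%, 11.1% and 10.5% of all tested genes were called lower, and 5.68%, 5.13% and 5.02% higher. The shares of the 125 were thus below those of all genes in each light and direction. The genes and their values stand in the report.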

How the results depend on the processing

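Of 296 comparisons of a count with its value under an alternative, 270 stayed within 1.5 times and 26 did not. Of 384 for named genes, 0 turned direction. Named values are differences of group means. The filters, the trend setting, fitting fewer groups and the replicate block cannot change such a difference. Nor can leaving out the dark library that no tested comparison used. Only other pseudocounts, TMM scaling and leaving out a whole replicate could have turned a direction. With TMM scaling the counts called at 30 min were 21 in white, 30 in blue and 26 in red light, far-red light at 1440 min gave 8, darkness at 720 min against time zero 3, and the rule 80 members. For the response at 180 minus 30 min that scaling gave 1, 5 and 3 calls higher and 8, 7 and 6 lower in white, blue and red light, and MpC3H5 and MpPPO38 were not called at 720 min. A pseudocount of 0.1 gave 3 for far-red light at 30 min, 4 at 180 min, 3 for blue light at 720 min, 2 for blue minus red at 30 min, 2 at 180 min, 14 for the red response and 8 for darkness at 720 min; a pseudocount of 0.5 gave 2 for blue minus red at 30 min. Blue minus red gave 0 at 30 min with only its own groups fitted, and 0 at 720 min with the 5 TPM filter. The cause was not tested.

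Leaving out 1 replicate gave 0 to 1 for far-red light at 30 min, and at 720 min 1 to 3 in white, 0 to 2 in blue, 3 to 5 in red, 5 to 9 in far-red light, 0 to 1 for blue minus red at 30 and at 720 min, 0 to 1 for darkness at 180 min and 3 to 7 at 720 min against time zero, and 113 to 164 members. No tested comparison used darkness at 60 min, so leaving out its replicate 3 could change calls only through the shared spread and the filter. No count of calls moved, which the design largely fixes, and the rule gave 180 members.

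Same-numbered replicates did not deviate together (r from −0.253 to 0.149, and in 0 of 20 pairs of groups above 0.1 for every number; 27 of 78 libraries correlated best with their own number). The replicate block moved 0 counts. Every group holds each replicate number, so the block cannot change a difference, and the 0 named values it moved are set by the design. Depth is unknown, so genes near 1 TPM, such as MpPAL7, cannot be given a counting error.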
